A study of Mus musculus with 2 samples.

Results

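Satellite cells are the stem cells of skeletal muscle, and 10 genes used to mark them or known to act in them were followed here in bulk gastrocnemius, the large calf muscle, of young mice: Pax7, Pax3, Calcr, Megf10, Sdc3, Sdc4, Spry1, Chrdl2, Vcam1 and Met. They were chosen by name, with earlier results of these data known, and are 10 of the 55536 named genes in the tables. The tissue came from female B6CASTF1/J mice, the F1 hybrid of C57BL/6J and CAST/EiJ, aged 10 days and untreated as far as the labels say. Total RNA with ribosomal RNA reduced was sequenced in 1 group of 2 libraries, biological replicates 1 and 2, each from 300 ng of RNA with synthetic ERCC spike-in transcripts added. The labels number the animals differently but give both libraries the same donor identifier, so the spread between them may be partly technical.

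Satellite cells lie between the muscle fibre and its basement membrane. The transcription factor PAX7 marks them in limb muscle, where its close relative PAX3 is used by migrating precursors in the embryo and is kept in the satellite cells of only some adult muscles. Cell surface receptors tie them to their niche: CALCR, the calcitonin receptor, is known for holding adult satellite cells in quiescence, and MET receives hepatocyte growth factor, HGF, a signal for activation. SPRY1 restrains signalling downstream of fibroblast growth factor receptors and is known for the return of these cells to quiescence. In the first weeks after birth many satellite cells still divide and add nuclei to growing fibres.

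Depth was 35925081 expected counts in replicate 1 and 39969380 in replicate 2, and spike-ins took 0.720% and 0.798%. The muscle genes Des (desmin), Myog and Mymk stood at TPM 665 and 751, 59.9 and 59.6, and 25.9 and 27.3 in replicates 1 and 2. TPM is a level per transcript length, so it can be compared between genes. Replicate 1 stood apart in markers of bone and osteoclasts: their summed TPM was 324 in replicate 1 and 18.0 in replicate 2. A comparison of the libraries has 1 value on each side, so it is described and not tested.

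Sequences are shown for 4 genes, Calcr, Pax7, Chrdl2 and Vcam1, whose transcript forms differ in a coding stretch that the transcript results turn on, since levels of a gene do not tell which form is made. They are mm10 sequence read at the exons of GENCODE M21, 5′ to 3′ on the transcribed strand. Calcr has a cassette exon of 111 bases at chr6:3707489-3707599 on the minus strand, held by 2 of its 5 annotated transcripts, Calcr-201 and Calcr-204. It lengthens the coding part from 1488 to 1599 bases. Rodents are known to make receptor forms with and without an insert in the extracellular part.
Calcr cassette exon: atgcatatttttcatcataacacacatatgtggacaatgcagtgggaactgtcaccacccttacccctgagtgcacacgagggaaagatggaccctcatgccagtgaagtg

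The 2 annotated Pax7 transcripts differ by 6 bases at the start of exon 4, at chr4:139828705-139828710 on the minus strand, shown in capitals between 24 bases on each side of the junction. Pax7-202, with a coding part of 1515 bases, holds them and Pax7-201, with 1509, does not. The matching junction of Pax3-201, on chromosome 1 between positions 78192553 and 78193763, is set beside them to show how alike the paralogs are there. The longest run of identical bases shared by Pax7-201 and Pax3-201 was 26, below the 31 bases searched for below, so reads of that length tell the paralogs apart.
Pax7-202: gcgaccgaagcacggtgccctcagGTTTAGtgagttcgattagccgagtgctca
Pax7-201: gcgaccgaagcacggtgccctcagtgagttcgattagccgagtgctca
Pax3-201: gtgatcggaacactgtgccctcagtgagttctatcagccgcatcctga

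Chrdl2-201 and Chrdl2-202 begin their coding parts in different exons, of 82 coding bases at chr7:100006566-100006647 and 103 at chr7:100010017-100010119, both on the plus strand. They are shown because the transcript tables disagree on which of them replicate 2 used.
Chrdl2-201: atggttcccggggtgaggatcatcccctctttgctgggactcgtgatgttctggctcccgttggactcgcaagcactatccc
Chrdl2-202: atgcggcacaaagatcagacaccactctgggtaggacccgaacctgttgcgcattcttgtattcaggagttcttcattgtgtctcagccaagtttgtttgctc

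Vcam1-203 is a short form with a coding part of 1035 bases against 2217 in Vcam1-201. It ends in a coding piece of 107 bases of its own at chr3:116123687-116123793 on the minus strand, and mice are known to make a short VCAM1 with a lipid anchor.
Vcam1-203: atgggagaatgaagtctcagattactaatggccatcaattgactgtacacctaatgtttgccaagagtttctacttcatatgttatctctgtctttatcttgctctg

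An intron of Calcr also holds Mir653 and Mir489 on the same strand, between exons that end at 3718718 and start at 3722923 of chromosome 6. miR-489 is known for keeping satellite cells quiescent, and its 3p arm, at chr6:3721922-3721944 on the minus strand, is shown from RefSeq (GRCm38.p6) with the seed, bases 2 to 8, in capitals. The rows of both microRNA genes had counts of 0 with effective lengths of 8 bases or less, so these libraries did not measure the microRNAs.
miR-489-3p: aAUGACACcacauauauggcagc

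8 of the 10 genes were detected, meaning a TPM of 1 or more in both libraries, and Chrdl2 and Pax3 were not. Over all named genes 22.6% were detected, and over nuclear protein coding genes 52.3%. The levels were spread widely among expressed genes: Spry1 stood at percentile 80.6 by mean TPM among the 11514 detected nuclear protein coding genes and Calcr at percentile 1.28. The median over the 8 detected genes was percentile 37.3.

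**Figure D1:**
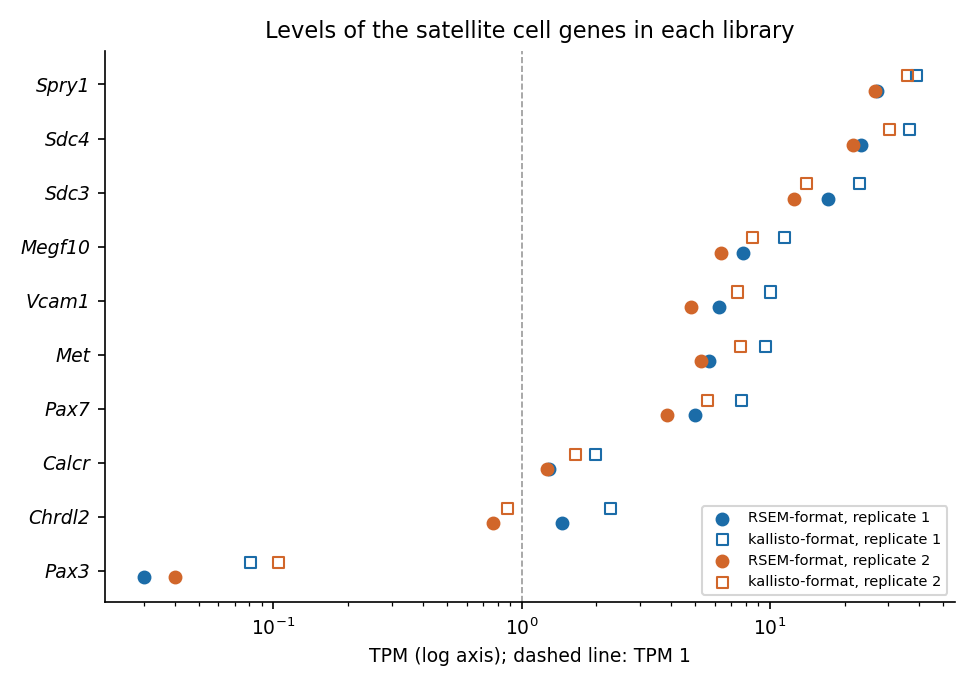
TPM of each of the 10 genes on a log axis, with filled circles for the RSEM-format gene tables and open squares for the kallisto-format tables (sums over a gene's transcripts), blue for replicate 1 and orange for replicate 2; the dashed line is the detection level of TPM 1. Spry1 is highest at TPM 27.1 and 26.5, Chrdl2 falls on either side of the line, and Pax3 lies far below it at 0.03 and 0.04.

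Among the transcription factors, Pax7 was detected and Pax3 was not. Pax7 (ENSMUSG00000028736.13, chromosome 4, 139737062 to 139833528) had 666 and 588 expected counts in replicates 1 and 2 and a TPM of 5.0 and 3.87, or 4.44 ± 0.80 (SD, n = 2). Pax3 (ENSMUSG00000004872.15, chromosome 1, 78101267 to 78197134) had 3 and 4 counts and a TPM of 0.03 and 0.04. Pax7 was thus far above Pax3 in each library. Per transcript length the ratio was 177 in replicate 1, with an exact 95% interval for counting error only of 60.2 to 859, and 92.4 in replicate 2, with an interval of 35.9 to 340.

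Of the 9 PAX genes, which share the DNA-binding paired domain, Pax7 alone was detected. It held 83.9% and 89.8% of the family's summed TPM, and Pax5, the B lymphocyte member, came next with 10.9% and 5.80%. Pax5 had 39 counts in replicate 1 and 3 in replicate 2, a TMM-scaled ratio of 12.2 with a counting interval of 3.88 to 61.8. Its TPM differed less, at 0.65 and 0.25, and at 0.86 and 0.32 in kallisto format, so the size of this difference depends on the measure. Pax3 held 0.50% and 0.93%.

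Calcr, the calcitonin receptor (ENSMUSG00000023964.15, chromosome 6, 3685680 to 3764714), was low, with a nearly equal TPM in the 2 libraries. It had 124 and 142 counts and a TPM of 1.29 and 1.26, 1.28 ± 0.02 (SD, n = 2). In bulk tissue, fewer cells that express a gene and less RNA per cell cannot be told apart. Met, the HGF receptor (ENSMUSG00000009376.15, chromosome 6, 17463800 to 17573980), was higher, with 809 and 883 counts and a TPM of 5.70 and 5.30, 5.50 ± 0.28. Met was above Calcr in each library.

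The adhesion and scavenger-type surface proteins lay in the middle of the order. Megf10 (ENSMUSG00000024593.15, chromosome 18, 57133090 to 57297467), a transmembrane protein with EGF-like repeats that acts in satellite cell proliferation and is mutated in an early-onset myopathy, had 1575 and 1463 counts and a TPM of 7.78 and 6.33. Vcam1 (ENSMUSG00000027962.14, chromosome 3, 116109949 to 116129688), an adhesion molecule used to sort satellite cells and also made by activated endothelium, had 591 and 472 counts and a TPM of 6.27 and 4.83. Replicate 1 was the higher library for both genes.

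The syndecans, heparan sulfate proteoglycans that present growth factors to their receptors, were among the highest of the 10. Sdc4 (ENSMUSG00000017009.3, chromosome 2, 164424247 to 164443887) had 1327 and 1266 counts and a TPM of 23.2 and 21.7. Sdc3 (ENSMUSG00000025743.14, chromosome 4, 130792537 to 130826319) had 1906 and 1433 counts and a TPM of 17.1 and 12.5. Sdc4 was above Sdc3 in each library, 1.36-fold in replicate 1 and 1.73-fold in replicate 2, although Sdc3 had more counts. The leading Sdc3 transcript is 4973 bases long and that of Sdc4 2458, and TPM divides by length.

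The inhibitors stood at opposite ends. Spry1 (ENSMUSG00000037211.12, chromosome 3, 37639947 to 37644598), the intracellular inhibitor, was the highest of the 10, with 1828 and 2026 counts and a TPM of 27.1 and 26.5. It exceeded Pax7 by 5.41-fold in replicate 1 and 6.84-fold in replicate 2. Chrdl2 (ENSMUSG00000030732.13, chromosome 7, 100006172 to 100034728), a secreted chordin-like protein that binds bone morphogenetic proteins, had 52 and 31 counts and a TPM of 1.45 and 0.77. Chrdl2 was above the detection level in replicate 1 and below it in replicate 2, and no other of the 10 genes changed sides.

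By mean TPM the order was Spry1, Sdc4, Sdc3, Megf10, Vcam1, Met, Pax7, Calcr, Chrdl2 and Pax3, and the kallisto-format means gave the same order of neighbours. Vcam1 and Met could not be ordered by the RSEM-format levels, since Vcam1 was the higher in replicate 1 and Met in replicate 2. Calcr and Chrdl2 likewise changed places between libraries. The other 7 neighbouring pairs did not overlap, but for Megf10 over Vcam1 the gap was only 6.33 against 6.27, and for Met over Pax7 5.30 against 5.0.

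The libraries were compared gene by gene as the log2 ratio of replicate 2 over replicate 1 of counts scaled by TMM, which sets the scale on genes that differ little. 9 of the 10 genes had the mean count of 20 asked for, Pax3 being the exception. None of the 9 differed by 2-fold. Over the 15198 genes with such a count, 4.05% were 2-fold or more higher in replicate 1 and 0.5% in replicate 2. The median absolute log2 ratio was 0.23 over the 9 genes and 0.21 over all genes.

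Chrdl2 had the largest difference of the 9, a log2 ratio of -0.65, with an exact 95% interval for counting error of -1.35 to 0.01. It was past 1.5-fold, as were 8.9% of all genes in that direction, and reached 2-fold only with spike-in scaling, at -1.04, as did 8.44% of all genes. Sdc3 followed at -0.32 with an interval of -0.42 to -0.22. Vcam1 was at -0.23 with an interval of -0.41 to -0.06. Spry1 at 0.24 and Met at 0.22 lay the other way under TMM, with intervals of 0.15 to 0.33 and 0.08 to 0.36, but both were below 0 with library totals, at -0.00440 and -0.03, and with spike-in totals, at -0.15 and -0.18. The counting interval lay on 1 side of 0 for these 4 genes, Sdc3, Vcam1, Spry1 and Met, and leaves out all spread between animals. The share of all genes with such an interval was not computed, so whether 4 of 9 is unusual cannot be told. Calcr had the highest ratio of the 9, 0.28, with an interval of -0.07 to 0.65.

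Which library was higher depended on the scale for several genes. With TMM 5 of the 9 were lower in replicate 2, against 44.2% of all genes. With library totals 8 of 9 were lower, against 75.9% of all genes, and with spike-in totals 9 of 9, against 89.9%. Chrdl2, Sdc3, Vcam1, Pax7 and Megf10 were lower in replicate 2 with TMM, Megf10 by only 0.02 on the log2 scale. The counting intervals of Pax7, -0.25 to 0.07, and Megf10, -0.12 to 0.09, held 0. Library and spike-in totals shift all genes down by nearly the same amount, so these 5 genes had to stay lower with them. The median of all genes moved from 0.04 with TMM to -0.20 with library totals and -0.35 with spike-in totals, and the median of the 9 genes from -0.02 to -0.26 and -0.41.

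**Figure D2:**
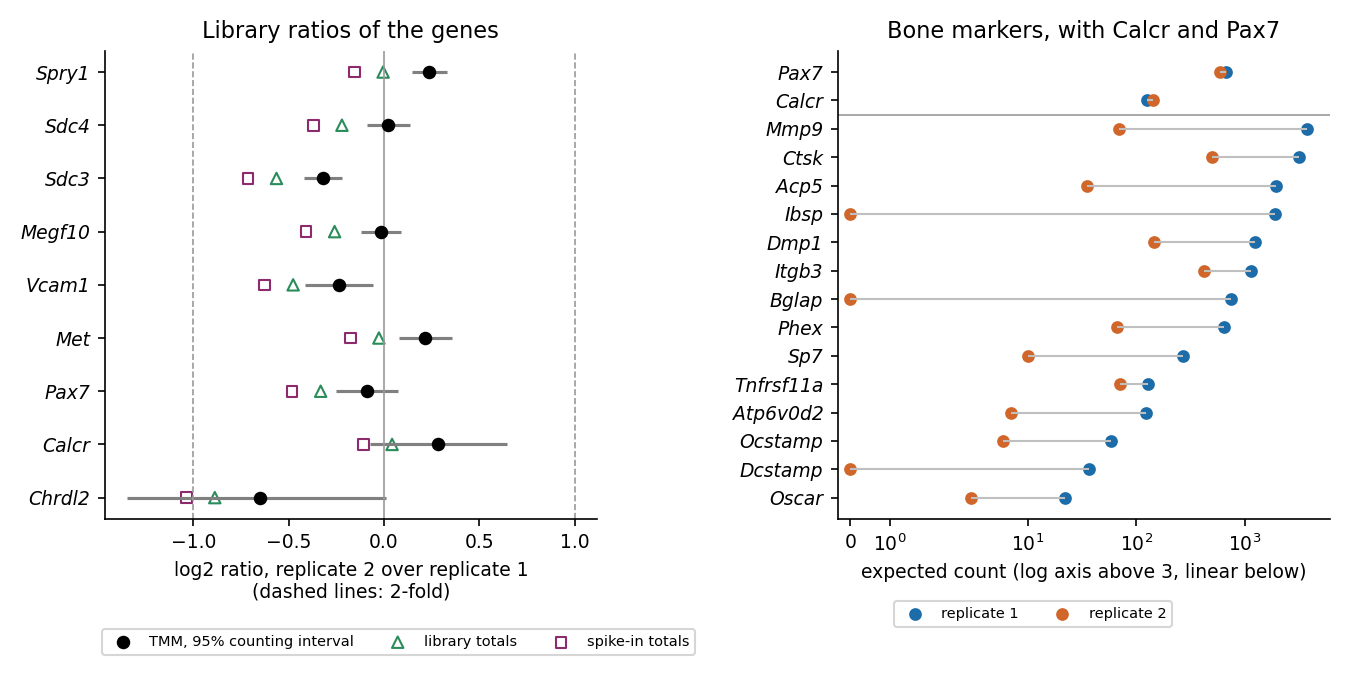
Left, log2 ratio of replicate 2 over replicate 1 for the 9 genes whose mean count reached 20: black points are TMM-scaled with bars for the 95% counting interval, green triangles use library totals, purple squares spike-in totals, and dashed lines mark 2-fold. Right, expected counts of 14 bone and osteoclast markers with Calcr and Pax7 above the line, on an axis that is linear below 3 counts; the bone markers are all higher in replicate 1 (blue) while Calcr has 124 and 142 counts.

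Calcr is also a defining receptor of osteoclasts, the cells that resorb bone, so bone markers were read beside it. Of 14 bone and osteoclast markers 12 had a mean count of at least 20, and 11 of those were 2-fold or more higher in replicate 1, with none higher in replicate 2. Acp5, the tartrate-resistant phosphatase of osteoclasts, had 1937 and 35 counts, the protease gene Mmp9 3676 and 69, and Ctsk, cathepsin K, 3133 and 496. The osteoblast genes Ibsp and Bglap had 1900 and 737 counts in replicate 1 and 0 in replicate 2, at least 595-fold and 231-fold higher when the 0 is replaced by 3 counts in that library. Dcstamp, a fusion gene of osteoclasts, had 37 and 0 counts. The others past 2-fold were Sp7 at 268 and 10 counts, Dmp1 at 1224 and 145, Phex at 636 and 66, Ocstamp at 58 and 6, Atp6v0d2 at 123 and 7, and Itgb3 at 1127 and 417. Calcr did not follow them: its TMM-scaled log2 ratio was 0.28, with a counting interval of -0.07 to 0.65. The sign depended on the scale, with 0.04 for library totals and -0.11 for spike-in totals. Tnfrsf11a, the receptor RANK, had 127 and 70 counts, and Oscar 22 and 3. In replicate 2 the osteoclast markers thus ranged from 0 counts of Dcstamp to 496 of Ctsk, beside 142 of Calcr, and their part in the Calcr level was not tested.

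The remaining satellite cell genes were read from a list of 18 further genes of identity and quiescence, of which 17 were detected and none differed by 2-fold. 9 were lower in replicate 2 and 9 higher under TMM, and 15 and 17 were lower with library and spike-in totals, where 75.9% and 89.9% of all genes were. The highest by mean TPM were Des at 708 ± 61, Cdkn1c at 417 ± 7.4, Cd34 at 82.7 ± 5.5, Peg3 at 75.8 ± 15.5 and Itga7 at 54.7 ± 2.4 (SD, n = 2 each). Des is made by muscle fibres and Cd34 by endothelium, so neither is particular to satellite cells. Which cells of the bulk tissue made the RNA of Cdkn1c, Peg3 and Itga7 was not tested. Only Gpr37l1 was below TPM 1, at 0.88 and 0.68.

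All 10 genes of the list of myogenic activation and commitment were detected, and none differed by 2-fold. Myog, Mymk, Myod1, Pcna and Ccnd1 were the highest by mean TPM. Myod1, the factor of activated myoblasts, stood at 20.1 and 21.9, 4.01-fold and 5.66-fold above Pax7. Myog, the factor of differentiating myocytes, was 12.0-fold and 15.4-fold above Pax7.

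The receptor side of the calcitonin pathway was present, while the genes of calcitonin and CGRP, the peptide ligands on the list, had 1 count or none. Calcrl, the related receptor for CGRP and adrenomedullin, stood at TPM 14.0 and 11.8, 10.8-fold and 9.39-fold above Calcr. Of the accessory proteins that change ligand choice, Ramp2 stood at 32.2 and 29.2, Ramp1 at 20.8 and 18.2 and Ramp3 at 0.58 in both libraries. Calca, which encodes calcitonin and CGRP, had 1 and 0 counts and Calcb 0 in both, where a count of 0 allows up to 3 counts (a CPM of 0.0841 in replicate 1 and 0.0757 in replicate 2). Collagen V, a ligand of CALCR in satellite cells, was abundant as Col5a1 at 124 and 92.0 and Col5a2 at 102 and 65.6. Downstream, the protein kinase A gene Prkaca stood at 217 and 228. 10 of the 13 genes on this list were detected and none of 11 differed by 2-fold.

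For MET, the receptor outnumbered its ligand. Hgf had 50 and 43 counts and a TPM of 0.69 and 0.46, so Met exceeded it by 8.26-fold and 11.5-fold. Of the 9 genes on this list of 13 with the mean count asked for, 1 was 2-fold or more higher in replicate 1, as were 4.05% of all genes. This was Mst1r, the only other receptor of the MET family. It had 148 and 59 counts, 2.35-fold higher in replicate 1, and a TPM of 2.49 and 0.60. Its kallisto-format TPM was 1.83 and 0.57. Of the MET adaptors Grb2 stood at 41.5 and 41.1 and Gab1 at 10.2 and 7.98. Plau and Plat, proteases that can activate HGF, stood at 11.3 and 12.5, and at 11.3 and 8.42, and 7 of the 13 genes were detected.

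All 4 syndecans were detected, with Sdc4 holding 34.6 ± 2.3% of their summed TPM, Sdc2 31.1 ± 1.4%, Sdc3 22.6 ± 2.4% and Sdc1 11.8 ± 1.3% (SD, n = 2 each). All 16 genes of syndecans and heparan sulfate enzymes were detected and none differed by 2-fold. The highest was Hspg2, perlecan, at 131 and 99.4, followed by Ndst1, an enzyme that starts sulfation, at 27.7 and 24.4. Ext2, of the chain polymerase, stood at 23.4 and 17.0.

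Spry1 held 51.4% and 54.1% of the Sprouty family's TPM. Spry2 held 37.4% and 35.6%, Spry4 11.1% and 10.1%, and Spry3 had 10 and 12 counts. The order Spry1, Spry2, Spry4 was the same in each library. 5 of the 7 Sprouty and Spred genes were detected. Of the FGF ligands and receptors that they restrain, 7 of 9 were detected: Fgfr1 was highest at 43.1 and 29.4, then Fgf1 at 11.4 and 8.36 and Fgfr4, the receptor of myogenic cells, at 10.9 and 6.22. Fgf2 stood at 7.04 and 4.64, and Fgf6, a ligand of muscle, at 4.33 and 3.16. All 9 were lower in replicate 2 with TMM, where 44.2% of all genes were lower. Library and spike-in totals shift all genes further down, so they could not change this count. With them 75.9% and 89.9% of all genes were lower. The TMM median was -0.18, Fgf1 was at only -0.01, and none differed by 2-fold.

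Megf10 was matched by its relative Pear1, a platelet and endothelial receptor, at 8.74 and 6.76, and both far exceeded Megf11 at 0.17 and 0.13. Of the 6 MEGF genes 5 were detected. Chrdl2 was the lowest of the 3 chordin genes by mean TPM: Chrdl1 stood at 2.74 and 3.07 and Chrd at 2.77 and 1.81. Chrdl1 and Chrd exceeded Chrdl2 in each library. Of 14 BMP ligands and antagonists 9 were detected, led by Bmp1, a protease that cleaves chordin and procollagen, at 36.4 and 21.2. Twsg1, a modulator of BMP signalling, stood at 14.5 and 13.3.

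The integrin subunits that bind VCAM1 were present: Itgb1 at 158 and 141, Itga9 at 13.8 and 11.1, and Itga4 at 2.88 and 2.25. Vcam1 exceeded Itga4 by 2.18-fold in replicate 1 and 2.15-fold in replicate 2. Icam1, another adhesion molecule, stood at 2.49 and 1.83. Itgb7, the leukocyte partner of Itga4, had 22 and 21 counts, and 5 of the 7 genes were detected.

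**Figure D3:**
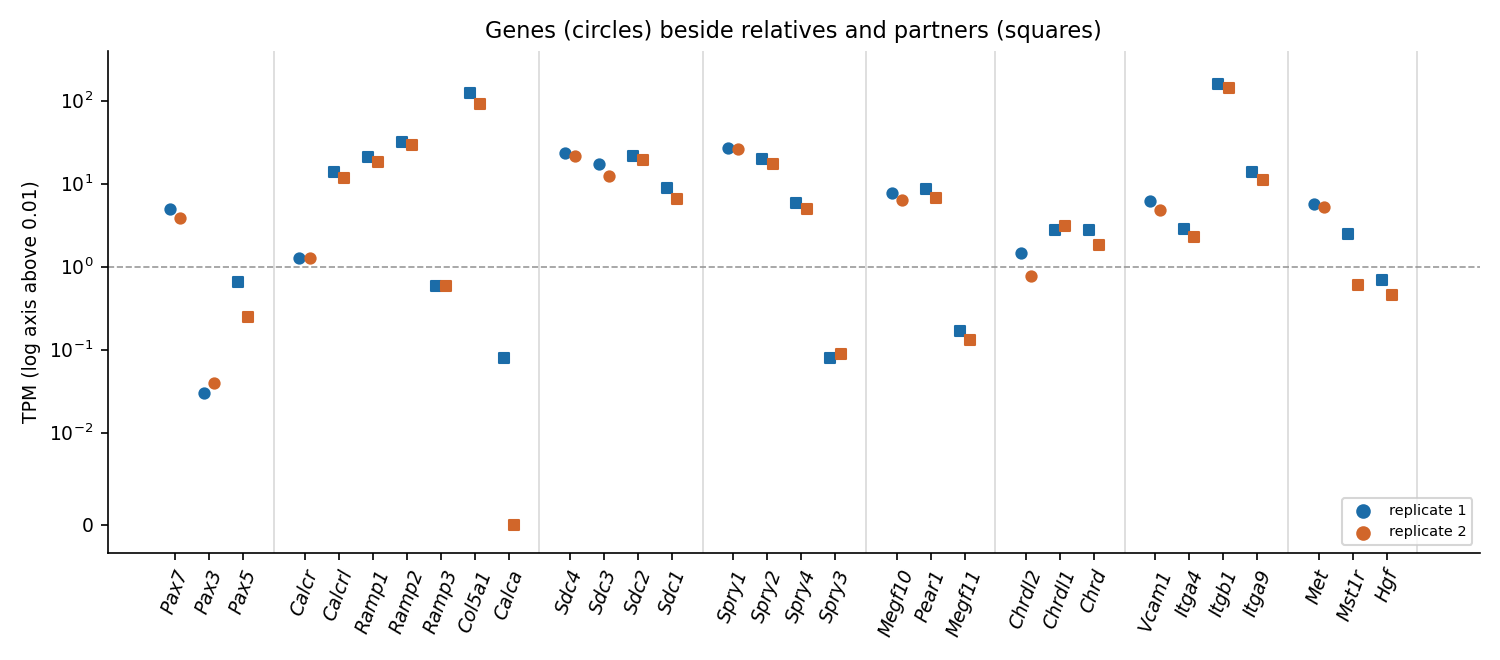
TPM per library of the 10 genes (circles) beside family relatives and ligand, receptor or accessory partners (squares), grouped by pathway on an axis that is logarithmic above 0.01, with blue for replicate 1, orange for replicate 2 and a dashed line at TPM 1. Pax7 stands far above Pax3, Calcrl and Ramp2 stand above Calcr, Hgf and Ramp3 lie below the line, and Calca is at 0 in replicate 2.

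Other cell types of the tissue can make some of the 10 genes. All 8 endothelial markers were detected, with a summed TPM of 234 and 207, led by Cdh5, Pecam1 and Esam. All 7 macrophage markers were detected, with 86.1 and 64.2 in sum and Lyz2, Csf1r and Mrc1 highest. All 9 fibro-adipogenic and fibroblast markers were detected, with Col1a1 at 3542 and 1887, Col3a1 and Dcn highest and a sum of 5569 and 3521. All 7 pericyte and smooth muscle markers (435 and 504, led by Acta2, Rgs5 and Abcc9) and all 6 tendon markers (282 and 242, led by Fmod, Tnmd and Thbs4) were detected. So were 6 of 7 Schwann cell markers (320 and 273, Mbp and Prx among them). None of the markers on these 6 lists differed by 2-fold. The cartilage markers, led by Col11a2, Col2a1 and Acan, summed to 65.7 and 40.3, with Col9a1 past 2-fold at 34 and 14 counts and Matn1 at 4 and 0. How much of each gene's RNA came from these cells was not tested.

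The transcript tables divide each gene's reads over its annotated forms. By RSEM format, 9 of the 10 genes had the same leading transcript in both libraries, Pax3 with its 3 and 4 counts being the exception. By kallisto format 6 did, and for these, Pax7, Megf10, Sdc3, Sdc4, Vcam1 and Met, both kinds of table named the same transcript.

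**Figure D4:**
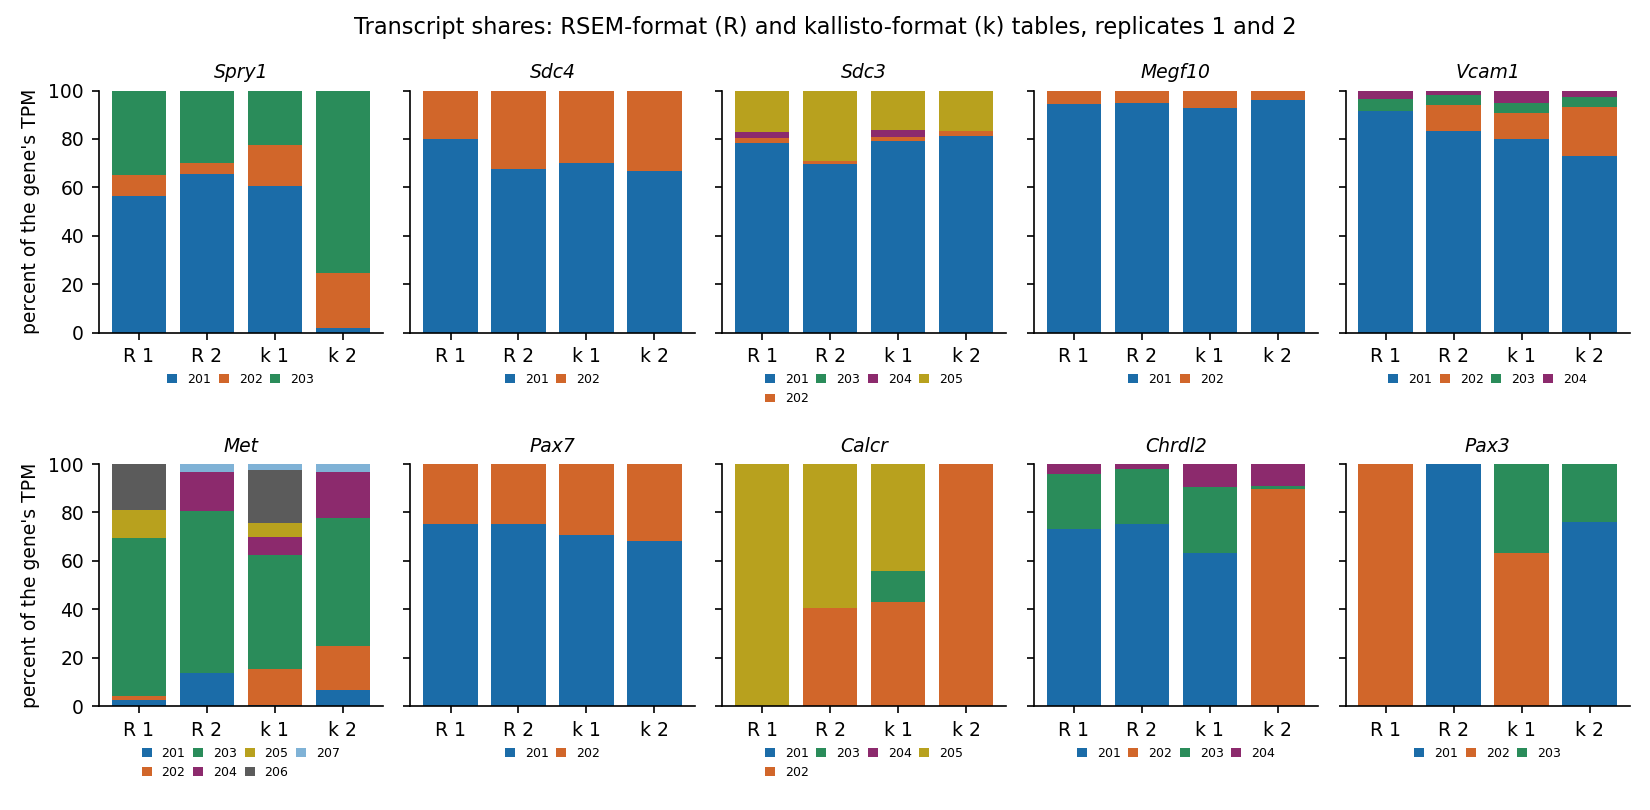
Percent of each gene's TPM given to each annotated transcript, 1 panel per gene, with bars for the RSEM-format (R) and kallisto-format (k) tables of replicates 1 and 2 and colours for the transcript numbers under each panel. Pax7-201 holds between 68.3% and 75.4% in the 4 bars, while Spry1, Calcr and Chrdl2 change their leading transcript in the kallisto-format bar of replicate 2.

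Pax7 had the most alike shares in the 2 RSEM-format tables. Pax7-201, the form without the 6 extra bases, held 75.1% and 75.4% of its TPM, and Pax7-202 24.9% and 24.6%. The kallisto-format shares of Pax7-202 were 29.2% and 31.7%. By counts Pax7-202 rested on 57.1 and 49.6 of the 666 and 588, since it has only 114 bases after its coding part against 3728 in Pax7-201. The forms also differ in their ends, so the shares do not count the 6 bases alone.

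For Calcr, neither kind of table gave any count to the 2 transcripts with the cassette exon printed above. All 124 and 142 RSEM-format counts, and all 141 and 153 kallisto-format counts, went to the 3 transcripts without it. The posterior mean shares of the deposited RSEM-format tables, which give every form a prior weight, put 14.0% and 18.2% on the cassette forms. The number of reads that touch the exon or its skipped junction is not in the tables, and the forms also differ in their ends, so the shares do not count the exon alone. Among the forms without it, RSEM-format tables gave Calcr-205 100% in replicate 1 and 59.3% in replicate 2, and the kallisto-format table of replicate 2 gave nearly all to Calcr-202. These forms share the same coding part.

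Spry1 shows the same pattern at high counts. Its 3 transcripts have the same coding part of 939 bases. Spry1-201 held 56.5% and 65.4% in the RSEM-format tables and 60.5% in the kallisto-format table of replicate 1, but 1.94% in that of replicate 2, where Spry1-203 held 75.2%. For Chrdl2, Chrdl2-201 held 73.4% and 75.1% in the RSEM-format tables and 63.4% by kallisto in replicate 1, while in replicate 2 kallisto gave it 0% and Chrdl2-202 89.7%. The forms of Chrdl2 begin with the different coding pieces printed above and rest on 52 and 31 counts.

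Vcam1-201, the full-length form, held 91.6% and 83.2%, and 80.2% and 73.1% by kallisto. The short Vcam1-203 held 5.03% and 4.18%, or 21.6 and 15.8 counts, and 4.28% and 4.06% by kallisto. Its share was thus low and alike in all 4 tables. Another short form, Vcam1-202, varied more, with 0% and 10.9%, and 10.4% and 20.2% by kallisto. Met-203 led with 65.4% and 67.1%, and 47.4% and 52.6% by kallisto, and shares its coding part of 4137 bases with Met-201 and Met-202. Met-206, a fragment of 470 bases, held 19.0% in replicate 1 and 0% in replicate 2 on 11.3 and 0 counts. The retained-intron transcript Met-205 held 11.4% and 0%, or 63.2 and 0 counts. Met-204, a short form, went the other way with 0% and 15.8%, and 7.38% and 19.2% by kallisto, and Met-201 held 2.52% and 13.6%.

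Sdc4-201, the coding transcript, held 79.9% and 67.5%, and the noncoding Sdc4-202 20.1% and 32.6% on 91.9 and 158 counts. Kallisto-format shares of Sdc4-202 were 29.99% and 33.2%. Sdc3-201 held 78.3% and 69.5%, with the short Sdc3-205 at 17.2% and 29.2%, and 16.3% and 16.9% by kallisto. Megf10-201 held 94.4% and 94.9%, and 92.9% and 96.1% by kallisto.

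The kallisto-format gene levels were higher than the RSEM-format levels for all 10 genes, with a median log2 ratio of 0.53 and a range of 0.30 for Sdc3 to 1.19 for Pax3. The value of Pax3 rests on 3 and 4 counts. With a pseudocount of 0.1 in place of 0.01 it was 0.48 and 0.55 in replicates 1 and 2. Nuclear protein coding genes held 46.1% and 47.0% of RSEM-format gene TPM and 75.6% and 75.5% of the kallisto-format. With both rescaled over those genes, the median log2 ratio was -0.16. Pax7 had a kallisto-format TPM of 7.69 and 5.61, with replicate 1 the higher library in both kinds of table.

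Runs of 31 bases were searched, on the same strand only, in all other annotated transcripts to see whether reads of a member could come from another gene. Overlap with genes on the opposite strand lay outside this search. Pax7, Calcr, Megf10, Sdc3, Spry1 and Met shared none. Vcam1 shared 1.05% of its runs, Pax3 1.00%, Sdc4 0.715% and Chrdl2 0.415%. Spry1 overlaps Gm42922, a gene model on the opposite strand with 60 and 68 counts. The antisense models Gm43109 at Vcam1 and Gm12970 and Gm26716 at Sdc3 had 0 counts. Whether the counting used strand is not given in the sources used here: reads of a gene and its antisense partner may not have been told apart.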

How the data were processed

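Total RNA-seq of gastrocnemius was read from 1 gene table and 2 transcript tables per library. The expected counts, TPM and percent-of-gene columns in the RSEM-format tables and the estimated counts and TPM in the kallisto-format tables were deposited by the authors, on mm10 with GENCODE M21 per the deposited text files. Other columns used were the authors' effective lengths and posterior means. The software behind them is not given in the sources used here. Rows that name no gene held 1.38e-05% and 5.00e-06% of counts and were left out, with spike-ins used only for scaling.

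Expected counts were rounded to whole numbers. Library ratios used edgeR 4.0.16 TMM factors (R 4.3.3), a prior count of 0.5 and a mean count of at least 20. Alternatives scaled by spike-in totals, by library totals or by DESeq2 1.42.0 size factors. Counting intervals are exact Clopper-Pearson intervals at 95% on the split of reads, and cover counting error only, as reads are not independent molecules. Ratios between tables used a pseudocount of 0.01. Other steps used scipy 1.17.1 and pandas 2.3.3 under Python 3.11.15. The ratio was tested on simulated counts in which equal numbers of genes were raised and lowered. In these libraries most genes past 2-fold were higher in replicate 1, a case that the simulation did not cover.

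Members, lists and rules were chosen with earlier results of these data known. Named were all members, up to 5 genes of a pathway list by mean TPM, partners and relatives, and of other-cell lists the 3 highest and any past 2-fold. Gpr37l1, Dcstamp, Tnfrsf11a, Oscar and Matn1 were named after their values were seen. Some genes that the rule names are not reported here. Protein identity of paralogs was planned and not run, as no protein table was used here.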

Additional observations from a re-analysis of the deposited data

Results flagged for a closer look

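Gm42922, a gene model on the strand opposite to Spry1 whose exons overlap those of Spry1, had a mean count of 64 (60 in replicate 1 and 68 in replicate 2, TPM 1.08 and 1.07). It is named because it carries signal at the place of a member without belonging to the genes studied. Spry1 had 1828 and 2026 counts. Both rows were slightly higher in unscaled counts in replicate 2, which was also the deeper library, at 39969380 expected counts against 35925081.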

How the results depend on the processing

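No paired analysis was possible because the 2 libraries form 1 group, so no groups share replicate numbers. The 8 detected genes became 9 at TPM 0.5, 7 at TPM 2, 8 with kallisto-format TPM, and 8 and 9 without replicate 1 or 2. The summed TPM of the 10 genes was 89.0, and 127 with kallisto-format TPM and 194 rescaled over nuclear protein coding genes. The median percentile of the detected genes was 37.3, 40.8 with kallisto-format TPM, and 37.8 to 38.1 without replicate 1 or 2; these settings were chosen after seeing the data. No gene was past 2-fold with TMM, 1 was with spike-in totals and 1 was past 1.5-fold, Chrdl2 in both. Of 9 genes 5 were lower in replicate 2 with TMM, 8 with library totals and 9 with spike-in totals. Over all genes, kallisto-format counts put 553 past 2-fold in replicate 1 and 152 in replicate 2, against 616 and 76 with RSEM-format counts. Of the 9 genes in the RSEM-format tables with the same leading transcript in both libraries, 6 kept it with kallisto-format shares. The median ratio of kallisto-format over RSEM-format TPM, 0.53, reversed to -0.16 with both rescaled over nuclear protein coding genes. Genes with few counts, Pax3, Chrdl2 and Calcr, have the least certain levels and transcript shares. With n = 2, the SD itself is imprecise.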
